A study of Mus musculus with 11 samples.

Results

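Clotting genes of the vessel wall were followed in sorted retinal endothelial cells. They were listed by symbol, and all 9 were found among the 55359 genes counted. They are Vwf, Thbd, Procr, Tfpi, F8, F3, Plat, Plaur and Mmrn2. The cells came from C57BL/6 mouse pups (C57BL/6J in the study's methods) in the model for oxygen-induced retinopathy (OIR), in which pups spend days in high oxygen, return to room air and grow pathological vessels into the hypoxic retina. Pups received an intravitreal injection of 0.5 µL of oncostatin M (OSM, a cytokine of the interleukin-6 family) at 100 ng/µL, or 0.5 µL of phosphate-buffered saline (PBS), at P12. At P17, both retinas of each mouse were pooled and their CD31+/CD45- cells were sorted. There were 5 OSM mice (1, 2, 5, 6 and 9) and 6 PBS mice (3, 4, 7, 8, 10 and 11), none with a transgene named in the labels. Mice 1 to 4, 5 to 8 and 9 to 11 formed 3 litters, and each litter was also 1 OIR run, so litter and run cannot be told apart. The study's methods state that the contralateral eye served as a PBS control, and whether both eyes of a sequenced mouse had the same injection is not given in the sources used here.

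Vessel walls keep blood fluid by balancing proteins that start clots with proteins that stop or dissolve them. Vwf tethers platelets and carries factor VIII (F8). F3, tissue factor, starts the clotting cascade, and Tfpi inhibits it. Thbd (thrombomodulin) turns thrombin into an activator of protein C, and Procr, the endothelial protein C receptor, presents protein C to that complex. Plat, tissue-type plasminogen activator, and Plaur, the receptor of urokinase, act in fibrinolysis, the breakdown of clots. Mmrn2 is an endothelial matrix protein of the EMILIN family that binds the receptors CD93 and CLEC14A.

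Between 26697990 and 56033479 reads were counted per mouse. Values are CPM, counts scaled to a common library size with TMM factors, which adjust each library for its composition. The 11 endothelial markers had summed levels of 15250 to 18160 CPM in OSM mice and 14320 to 18070 in PBS mice, led per length by Cldn5, a tight junction protein (4694 ± 584.4 CPM, SD, n = 11). Leukocyte markers stood apart in PBS mouse 4 (84.52 CPM), PBS mouse 3 (28.11) and OSM mouse 5 (20.22), with at most 5.422 elsewhere. Of the sum in PBS mouse 4, 66.94 CPM came from Lyz2 alone. The gene that encodes CD45, Ptprc, had 0 reads in that mouse and at most 22 in any mouse. Rod markers, led by Gnat1, a rod transducin subunit, reached 5227 CPM in OSM mouse 5 against 193.1 to 1704 in the other mice. All 10 mural cell markers, led by Rgs5, had log2 fold changes below 0, with sums of 423.3 to 881.7 CPM in OSM and 331 to 1818 in PBS mice. All 5 erythroid markers, led by the globin gene Hbb-bs, had log2 fold changes above 0, with sums of 358.4 to 1128 against 116.6 to 595.6. None of these markers passed the adjusted test (edgeR quasi-likelihood test). At an unadjusted p under 0.05 in this test there were 5 of 5 erythroid and 2 of 10 mural markers, beside 4.96% of all genes. Each other marker list had 0. The part of the cells marked by these genes in the values that follow was not tested unless a measurement is given.

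Levels between genes were compared per kilobase of merged exons. Vwf stood first at 150.9 CPM per kb, above 98.9% of 16962 tested and annotated genes, whose median was 1.97. It was followed by Plat (84.42) and Mmrn2 (75.26), then by Thbd (28.19), Procr (27.09), Tfpi (21.66) and Plaur (18.05). F8 (0.1543) and F3 (0.1358) were far below, above 13.3% and 11.8% of the genes. Neighbours were not all separated: Vwf exceeded Plat in 11 of 11 mice and Mmrn2 exceeded Thbd in 11 of 11, but Plat exceeded Mmrn2 in 8 of 11 and Thbd exceeded Procr in 5 of 11. Procr exceeded Tfpi in 10 of 11 mice, Tfpi exceeded Plaur in 8 of 11, and F8 exceeded F3 in 5 of 11. Per kilobase of the longest transcript the levels were 285.8 for Vwf, 145.6 for Plat, 137.7 for Mmrn2, 40.25 for Thbd, 35.93 for Plaur, 34.39 for Procr, 33.12 for Tfpi, 0.1923 for F3 and 0.1562 for F8, so that Plaur moved above Procr and Tfpi, and F3 above F8. In bulk samples, fewer cells that express a gene and less RNA per cell cannot be told apart.

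**Figure D1:**
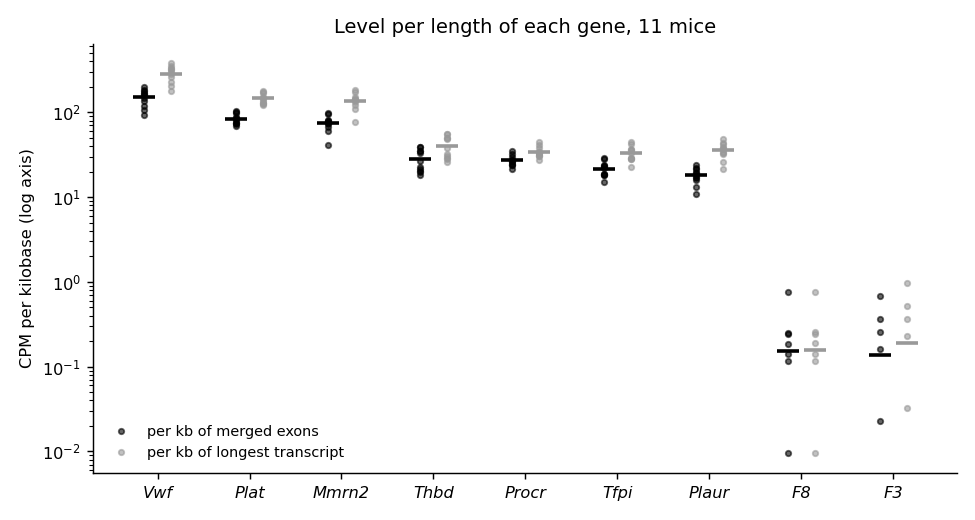
Level of each gene in CPM per kilobase on a log axis, with 1 point per mouse (mice without reads are not drawn) and bars at the mean of all 11 mice, per kilobase of merged exons (black) or of the longest transcript (grey). Vwf, Plat and Mmrn2 lie highest, and F8 and F3 lie far below the other 7 genes.

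Promoter sequence was read for the 250 bases before the start of the transcript annotated as canonical for each gene. It was searched on both strands for TTCNNNGAA (the STAT motif, for the factors downstream of OSM), CCGGAA (ETS), GATAA (GATA) and TATAAA (the TATA box). The ETS and GATA families include regulators of endothelial genes. Across 13341 such windows, 6.5% held the STAT motif, 17.1% the ETS motif, 17.4% the GATA motif and 7.4% the TATA motif. Of the 9 genes, 0 held the STAT motif, 0 held TATAAA, 1 held the ETS motif (F8) and 3 held GATAA, namely Vwf, Procr and Tfpi. All 250 bases of the Tfpi, F3 and Mmrn2 windows lie in annotated exons, as do 181 bases for F8 and 93 for Thbd. The 3 windows printed here lie outside annotated exons. They were chosen because those of Vwf and Procr hold GATA matches and because Vwf and Plat are the most abundant genes per length. Capitals mark GATAA or its reverse complement, which did not overlap each other. The windows, all on the plus strand of GRCm39, are chr6:125529661-125529910 for Vwf, chr2:155592781-155593030 for Procr and chr8:23247459-23247708 for Plat, which held none of the motifs. The Vwf window lies inside the annotated span of its gene, which begins at 125523737. Those of Tfpi, F8 and F3 also lie inside the spans of their genes, and that of Thbd does in part.
Vwf: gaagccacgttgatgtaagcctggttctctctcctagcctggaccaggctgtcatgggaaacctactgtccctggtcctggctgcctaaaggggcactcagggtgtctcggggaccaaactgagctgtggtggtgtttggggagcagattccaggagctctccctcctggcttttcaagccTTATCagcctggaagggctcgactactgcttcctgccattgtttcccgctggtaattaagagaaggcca
Procr: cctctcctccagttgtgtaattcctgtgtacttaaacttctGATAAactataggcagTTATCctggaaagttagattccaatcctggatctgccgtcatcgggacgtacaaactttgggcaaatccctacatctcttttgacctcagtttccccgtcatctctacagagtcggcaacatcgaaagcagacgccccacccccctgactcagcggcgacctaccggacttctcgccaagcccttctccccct
Plat: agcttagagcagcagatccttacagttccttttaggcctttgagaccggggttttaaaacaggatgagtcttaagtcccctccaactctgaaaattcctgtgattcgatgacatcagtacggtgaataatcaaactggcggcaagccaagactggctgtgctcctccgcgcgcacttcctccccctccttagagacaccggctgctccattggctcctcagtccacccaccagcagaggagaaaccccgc
A match gives letters only and does not show that a factor binds there.

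Vwf (ENSMUSG00000001930, chromosome 6 of GRCm39, 125523737 to 125663642) had 2525 ± 560.2 CPM (SD, n = 11). In OSM mice 1, 2, 5, 6 and 9 the levels were 3102, 3326, 2276, 1573 and 2475 CPM. In PBS mice they ran from 1783 to 2955 with a median of 2713. The groups overlapped, with both the highest and the lowest mouse among those given OSM. The log2 fold change of OSM against PBS was 0.034 (SE 0.096, 95% interval −0.18 to 0.25), which in fold is 0.883 to 1.19. Platelets also carry Vwf RNA, and the 10 platelet and megakaryocyte markers summed to 9.142 to 21.49 CPM per mouse. Their highest per length was Pf4 (2.459 ± 2.040 CPM, SD, n = 11), and Itga2b, a platelet integrin, had 7.713 ± 3.645.

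F8 (ENSMUSG00000031196, chromosome X, 74216321 to 74426221) was near the limit of detection, with reads in 7 of 11 mice. OSM mice 1, 2, 5, 6 and 9 held 40, 0, 54, 0 and 134 reads. PBS mice 3, 4, 7, 8, 10 and 11 held 197, 3, 45, 0, 84 and 0. Where no read was counted, a level of up to 0.0861 to 0.105 CPM remains possible (3 reads, counting error only). Reads and their absence were found in both groups, and PBS mouse 3 was highest at 7.473 CPM. The log2 fold change of −0.47 had an SE of 2.17 and an interval of −5.26 to 4.33, so large differences in either direction lay within it.

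F3 (ENSMUSG00000028128, chromosome 3, 121516610 to 121528820) had reads in 5 of 11 mice. OSM mice held 0, 39, 0, 0 and 4 reads, and PBS mice held 0, 68, 26, 0, 17 and 0, each in the order of the mouse numbers. The 3 highest mice, PBS mouse 4 (2.127 CPM), OSM mouse 2 (1.131) and PBS mouse 7 (0.7966), spread over both groups. Mice without a read allow up to 0.0861 to 0.114 CPM. The fitted log2 fold change was −2.61 (SE 2.41, interval −7.93 to 2.71), a value that depends on how zero counts are handled. Glia express F3 in many tissues, and glial markers, led by Glul, summed to 188.1 to 462.6 CPM in OSM and 176.1 to 358.8 in PBS mice. The sum was highest in OSM mouse 2. Glul alone had 237.4 ± 36.9 CPM (SD, n = 11). Of the other glial markers, Clu, Dkk3, Rlbp1 and Slc1a3 had means of 19.1, 17.2, 13.1 and 5.4 CPM. Gfap, Aqp4 and Pax2 had reads in 4, 2 and 3 of 11 mice. Of the merged exon bases of F3, 439 (14.17%) overlap the antisense gene Gm43823, which had 14 reads in all.

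Tfpi (ENSMUSG00000027082, chromosome 2, 84263195 to 84307164) had 133.1 ± 26.6 CPM (SD, n = 11). Its levels in the 5 OSM mice were 113.1, 115.1, 143.0, 177.9 and 142.4 CPM, and in PBS mice 91.83 to 171.5 with a median of 124.4. The ranges overlapped over most of their length, and the log2 fold change was 0.088 (SE 0.155, interval −0.25 to 0.43). The log2 ratio of Tfpi to F3 was 10.08 ± 2.03 in OSM (SD, n = 5) and 9.014 ± 2.14 in PBS mice (SD, n = 6). The mean difference within litters was 1.07, with 0.41, 2.13 and 0.68 in litters 1, 2 and 3. An exact two-sided permutation test of the treatment labels within litters gave p = 0.463 (adjusted over 2 ratios, 0.463), where the smallest possible fraction of 1 assignment is 0.00926. Because F3 was at 0 in 6 mice, this ratio rests largely on the prior count of 2, and it is not corrected for length.

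Thbd and Procr, the pair that activates protein C, showed different spreads. Thbd (ENSMUSG00000074743, chromosome 2, 148216045 to 148250201) had levels of 253.0, 287.8, 194.4, 157.5 and 147.5 CPM in the 5 OSM mice and of 131.7 to 286.4 in PBS mice, with a median of 204.6. The range was nearly the same in both groups, and the log2 fold change was −0.059 (SE 0.119, interval −0.32 to 0.20). Procr (ENSMUSG00000027611, chromosome 2, 155593031 to 155597397) had levels of 50.24, 43.60, 66.05, 72.10 and 61.41 CPM in OSM and of 48.50 to 55.34 in PBS mice, with a median of 53.47. OSM mice lay on both sides of the narrow PBS range, with coefficients of variation of 19.8% in OSM and 5.66% in PBS mice, a difference that was not tested. The log2 fold change of Procr was 0.14 (SE 0.143, interval −0.17 to 0.46).

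Plat (ENSMUSG00000031538, chromosome 8, 23247709 to 23272871) had the narrowest spread relative to its level among the 9 genes, at 588.6 ± 82.9 CPM (SD, n = 11). The OSM mice had 706.7, 678.8, 614.8, 514.7 and 486.8 CPM, and the PBS mice 506.6 to 715.2 with a median of 566.3. The groups overlapped over most of their ranges, with OSM mouse 9 lowest and PBS mouse 4 highest. The log2 fold change of 0.013 (SE 0.080) had an interval of 0.893 to 1.14 in fold.

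Plaur (ENSMUSG00000046223, chromosome 7, 24161875 to 24175394) had 79.21, 52.35, 87.80, 76.22 and 73.38 CPM in the OSM mice and 43.25 to 96.78 in the PBS mice, with a median of 67.73. The PBS range enclosed that of OSM, and the log2 fold change was 0.034 (SE 0.195, interval −0.40 to 0.47). Plau, which encodes its ligand urokinase and was named after its values were seen, was near the limit, with reads in 8 of 11 mice and at most 60 reads.

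Mmrn2 (ENSMUSG00000041445, chromosome 14, 34097422 to 34126527) had 745.5, 772.0, 588.2, 324.5 and 602.1 CPM in the OSM mice and 468 to 638 in the PBS mice, with a median of 587.2. OSM mice 1 and 2 lay above all PBS mice and OSM mouse 6 lay below them. The log2 fold change was 0.064 (SE 0.150, interval −0.27 to 0.39). Without OSM mouse 6 it was 0.20 with an unadjusted edgeR p of 0.0457 and an adjusted p of 0.931. Its exons share 314 bases (4.03%) with Sncg on the opposite strand, which had 8506 reads in all mice together.

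**Figure D2:**
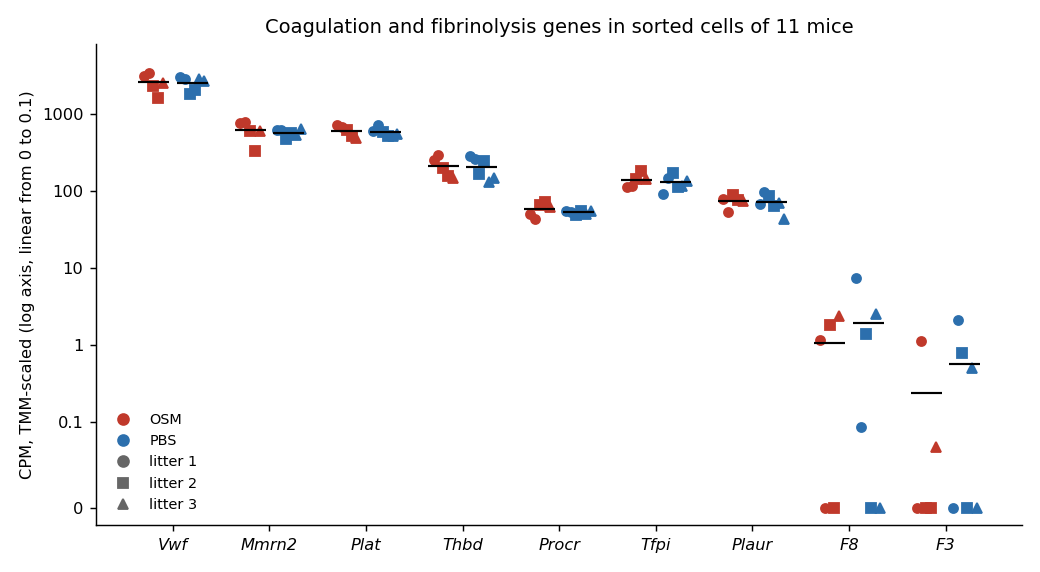
CPM of the 9 genes in each of 5 OSM mice (red) and 6 PBS mice (blue), with the litter shown by the marker and the group mean by a black bar, on a log axis that is linear between 0 and 0.1. The groups overlap for every gene, and F8 and F3 are at 0 in several mice of both groups.

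With litter as a term, 0 of the 9 genes passed an adjusted p of 0.05 in edgeR's quasi-likelihood test, and each had an adjusted p of 1. Over all 17050 genes tested, 0 passed (0%), and 846 (4.96%) had an unadjusted p under 0.05, against 0 of the 9. A DESeq2 Wald test called 0 of the 9 and 168 of 22014 genes with an adjusted p (0.763%). Without the filter on low counts, edgeR called 0 of the 9 and 65 of 28940 genes (0.225%). Log2 fold changes were above 0 for 6 and below 0 for 3, with a median of 0.034 beside −0.014 over all genes tested. Groups that did not overlap were found for 0 of the 9 genes and for 0.411% of all genes. For the 7 genes with at least 1380 reads in every mouse, the 95% intervals lay within 0.759-fold and 1.38-fold, so larger differences than these were outside them. F8 and F3 had no such bound.

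Within litters, 1 of the 9 genes (11.1%) had the same sign in all 3 litters, beside 25.1% of all genes. That gene was F3, with OSM minus PBS differences in log2 CPM of −0.44, −1.93 and −0.48 and reads in 5 of 11 mice. Each of the other genes changed sign between litters. Differences in litters 1, 2 and 3 were 0.17, 0.0018 and −0.15 for Vwf, and 0.076, 0.035 and −0.11 for Plat. For Mmrn2 they were 0.31, −0.24 and 0.060. Procr was lower in OSM in litter 1 (−0.21) and higher in litters 2 and 3 (0.43 and 0.23), and Plaur followed the same order of signs (−0.32, 0.14 and 0.43). Thbd had −0.0014, −0.20 and 0.092, and Tfpi −0.033, 0.20 and 0.20. The test of whether the OSM effect differed between litters called 0 of the 9 genes and 0 of all genes (0%). At an unadjusted p under 0.05 it found 0 of the 9, beside 6.42% of all genes, and the p-values of the 9 ran from 0.141 to 0.754 (edgeR quasi-likelihood F test). A DESeq2 likelihood ratio test of the same terms called 0 of the 9 and 673 of 14519 genes with an adjusted p (4.64%).

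**Figure D3:**
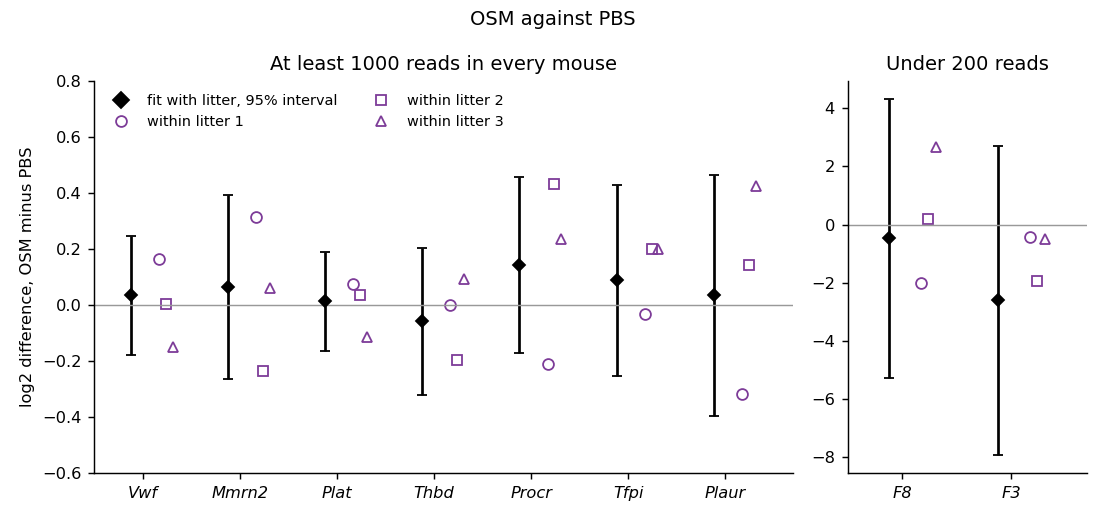
Log2 difference of OSM against PBS for each gene, from the fit with litter as a term (diamonds with 95% intervals) and within litter 1 (circles), 2 (squares) and 3 (triangles), with F8 and F3 on their own axis. Every interval includes 0, and F3 alone lies on 1 side of 0 in all 3 litters.

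The 3 lowest p-values for litter were those of Thbd, Vwf and Plat. Thbd had 270.5 ± 19.2 CPM in litter 1 (SD, n = 4), 190.3 ± 39.7 in litter 2 (n = 4) and 141.6 ± 8.63 in litter 3 (n = 3), and the 3 ranges did not overlap. Vwf had 3040 ± 232 CPM in litter 1, 1909 ± 301 in litter 2 and 2658 ± 188 in litter 3. All mice of litter 2 lay below all other mice, while litters 1 and 3 overlapped. Plat had 676.1 ± 50.8, 557.5 ± 50.6 and 513.6 ± 31.0 CPM in litters 1, 2 and 3, with overlap between litters 1 and 2 and between litters 2 and 3. In edgeR's F test of the litters, the unadjusted p was 0.000243 for Thbd, 0.000307 for Vwf and 0.0054 for Plat. After adjustment over all genes the values were 0.0861, 0.0861 and 0.219, so 0 of the 9 were called, beside 0.0176% of all genes. At an unadjusted p under 0.05, 3 of the 9 (33.3%) were found, beside 10.3% of all genes. The same test found 3 of the 11 endothelial markers and 11 of 53 tested genes (20.8%) in the 8 further coagulation lists described below. The endothelial markers were Pecam1 (unadjusted p 0.000202, adjusted 0.0783), Kdr (0.00525, adjusted 0.218) and Cdh5 (0.0321, adjusted 0.435). Litter differences were thus not particular to the 9 genes. Which of the 9 were called depended on the method: edgeR called Vwf, Thbd and Mmrn2 when genes with low counts were kept, beside 2.16% of 28940 genes. DESeq2's likelihood ratio test called Vwf, Thbd and Plat among 8 with an adjusted p (F3 had none), beside 995 of 13985 genes (7.11%). Leaving out PBS mouse 8, the highest mouse of litter 2 for Thbd, gave Thbd an adjusted p of 0.0229. Summed endothelial markers were 16440 to 18160 CPM in litter 1, 14320 to 18070 in litter 2 and 14770 to 16850 in litter 3. Cldn5 had the highest mean among these markers, with an unadjusted p of 0.452 in edgeR's F test of the litters. Erythroid markers were 543.2 to 1128 CPM in litter 2 and 116.6 to 618.3 in the other litters, and their part in the litter differences was not tested.

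Over the 36 pairs of the 9 genes, 1 correlation across mice passed an adjusted p of 0.05. Vwf and Mmrn2 in log2 CPM had a Pearson r of 0.862 (permutation p = 0.00034, adjusted 0.0122, n = 11) and a Spearman rho of 0.809 (permutation p = 0.00402, adjusted 0.135). In all, 5 pairs had an unadjusted permutation p under 0.05 by r, and 0 passed adjustment by rho. Without OSM mouse 6 and PBS mouse 7, the mice farthest from the median of Vwf, r was 0.628 (exact permutation p = 0.0686, n = 9), so the relation rests in part on these mice. Within litters r was 0.900 in litter 1 (4 mice), 0.936 in litter 2 (4 mice) and −0.705 in litter 3 (3 mice), given without a test at so few mice. With the means of litter and treatment removed, r was 0.79 (permutation p = 0.00467, adjusted 0.168). The permutations of all 11 mice were not kept within litters. Values with these means removed are also not independent of each other, so their permutation p can be too small. Vwf and Tfpi had an r of −0.706 (permutation p = 0.0152, adjusted 0.199), and Thbd and Plat an r of 0.725 (permutation p = 0.0166, adjusted 0.199) that became −0.253 with litter and treatment removed. All values of a mouse share its library.

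**Figure D4:**
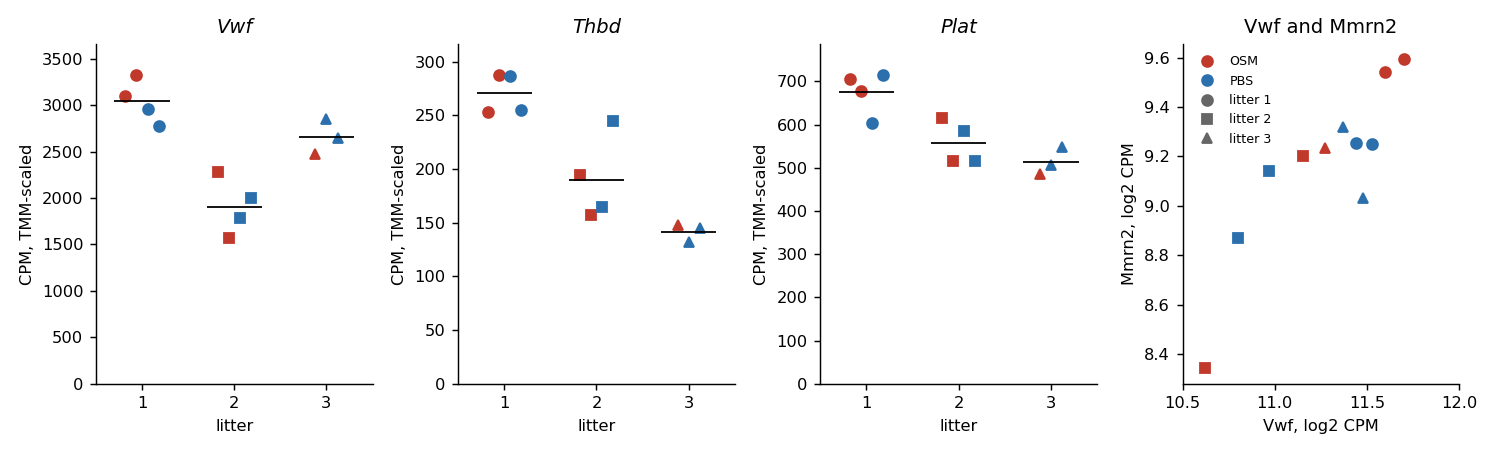
CPM of Vwf, Thbd and Plat in each mouse by litter, with the litter mean as a bar (first 3 panels), and log2 CPM of Mmrn2 against Vwf in the 11 mice (last panel), OSM in red and PBS in blue. Litter 2 is lowest for Vwf, the litters do not overlap for Thbd, and OSM mouse 6 is lowest in both Vwf and Mmrn2.

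The described genes with at least 100 reads in every mouse were compared with 8878 other genes. Those had passed the filter on low counts with a mean of at least 10 CPM, without a minimum of reads per mouse. The highest Pearson r over the 11 mice is given as a description. Nearest to Vwf were Fos, an immediate early transcription factor (0.94), and Col4a1, a basement membrane collagen (0.927). Nearest to Mmrn2 were Gpr146 (0.90) and Mylip (0.897). Thbd was nearest to Kansl2 (0.963) and Inpp5k (0.96), and Plat to Cebpg (0.915) and Abhd17c (0.914). Procr was nearest to Ap3s1 (0.869) and Rab11a (0.863), Tfpi to Cfdp1 (0.886) and Tmem218 (0.866), and Plaur to Tmem237 (0.876) and Zrsr2 (0.863).

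The surrounding pathway was read from 8 further lists with 75 genes, of which 53 passed the filter on low counts and 10 had no read in any mouse. Of the 53, 22 had log2 fold changes above 0 and 31 below, with a median of −0.061, and 0 were called. At an unadjusted edgeR p under 0.05 there were 3 (5.66%), beside 4.96% of all genes, and all 3 were lower in OSM. Serpine2, a thrombin inhibitor, had 69.7 ± 15.2 CPM in OSM (SD, n = 5) and 128.5 ± 56.5 in PBS mice (SD, n = 6), and a log2 fold change of −0.80 (SE 0.24). The other two were Lrp1, a clearance receptor for Plat and other proteases (−2.06, SE 0.80), and Cd63, a tetraspanin of Weibel-Palade bodies (−1.02, SE 0.38). Their unadjusted p-values in edgeR were 0.00725, 0.026 and 0.0217, and the adjusted p was 0.955 for each. Mural cells also express Serpine2 and Lrp1, and the mural markers gave the sums stated above, so the part of these cells was not tested.

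Of 15 procoagulant factors, which are mostly made in the liver, 3 passed the filter and 4 had no read. The log2 fold change of F5 (25.1 ± 12.1 CPM, SD, n = 11) was 0.18 with an SE of 0.29, while F2 had reads in 5 of 11 mice. Of 12 anticoagulant proteins 8 passed, 5 above and 3 below 0, with a median of 0.060. Anxa5, which shields phospholipid surfaces, had 847.2 ± 43.9 CPM and Pros1, the cofactor of activated protein C, 243.4 ± 47.5 (SD, n = 11). Their log2 fold changes were 0.0036 (SE 0.065) and 0.12 (SE 0.15). All 3 tested thrombin receptors of 4 listed had fold changes below 0, with F2r at −0.18 (SE 0.18) and F2rl3 at −0.14 (SE 0.38).

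Of 15 genes of plasminogen activation and its inhibitors 11 passed, 2 above and 9 below 0, with a median of −0.39. Anxa2, a cell-surface partner of Plat and plasminogen, had 1791 ± 249.7 CPM (SD, n = 11) and a log2 fold change of −0.054 (SE 0.088). Vtn, the adhesive protein vitronectin, had −0.52 (SE 0.37), with −0.69, 0.41 and −0.99 in litters 1, 2 and 3. All 10 mural cell markers were also below 0, and the part of mural cells in the level of Vtn was not tested. Of 6 genes by which endothelium restrains platelets 5 passed, 3 above and 2 below 0. They include Nos3, the endothelial nitric oxide synthase (−0.061, SE 0.14), and Ptgis, prostacyclin synthase (−0.23, SE 0.14).

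All 12 genes of Weibel-Palade bodies, the granules that store Vwf, passed the filter, 6 above and 6 below 0 with a median of −0.090. Angpt2 had 223.3 ± 113.6 CPM (SD, n = 11) and a log2 fold change of −0.45 (SE 0.29), and Vamp8 had 0.12 (SE 0.13). Selp, chosen after its values were seen because it lies farthest out in the plot by role, had reads in 5 of 11 mice and a fitted value of 6.33 with an SE of 3.53. For the 5 genes of factor export and carboxylation the median was 0.069, with Lman1 at 0.069 (SE 0.12) and its partner Mcfd2 at −0.059 (SE 0.15). Among the 6 genes of the multimerin and EMILIN family and their partners the median was −0.017. The Mmrn2 receptors Cd93 (1379 ± 110.0 CPM) and Clec14a (756.3 ± 137.7, SD, n = 11) had log2 fold changes of 0.0038 (SE 0.073) and −0.027 (SE 0.096). Lymphatic markers summed to 87.97 to 235.4 CPM in OSM and 110.7 to 246.6 in PBS mice. This sum came mostly from Flt4 alone (168.5 ± 49.0 CPM, SD, n = 11). Lyve1, Prox1 and Pdpn had means of 1.81, 0.523 and 0.483 CPM, with reads in 5, 5 and 4 of 11 mice.

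**Figure D5:**
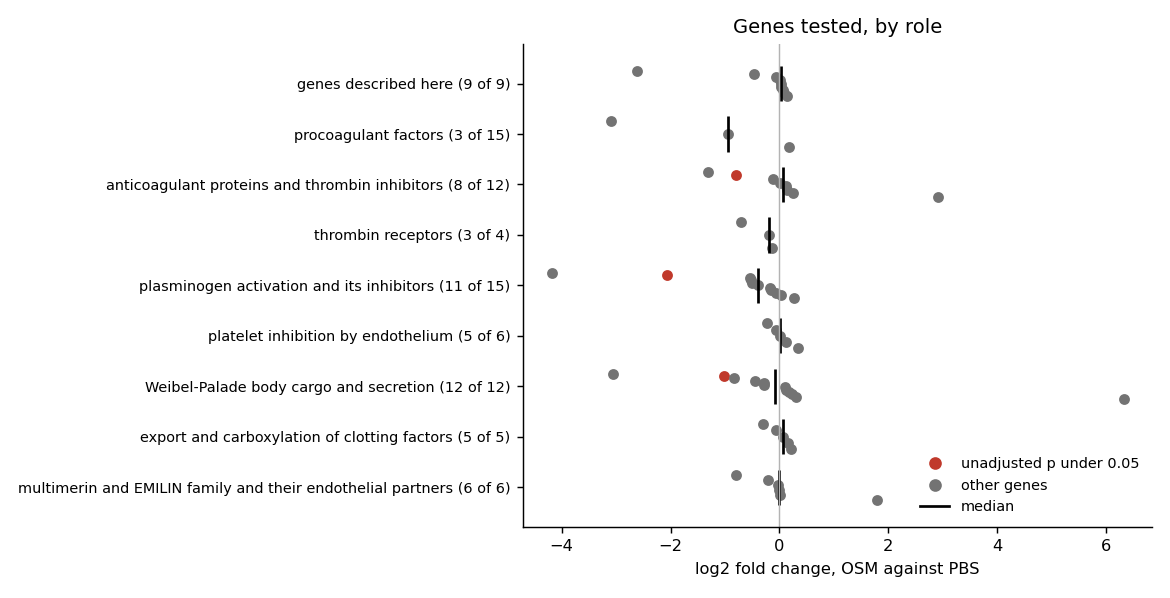
Log2 fold change of OSM against PBS for each tested gene of the 9 described here and of the 8 further lists, with tested and listed numbers beside each name, medians as black lines and genes with an unadjusted p under 0.05 in red. Most genes lie near 0, and the 3 red points, Serpine2, Lrp1 and Cd63, lie below 0.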

How the data were processed

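RNA from endothelial cells sorted from 11 mice was turned into cDNA from its poly(A) tails and amplified by PCR, and single-end reads carried no molecular identifiers. Reads were aligned with STAR (GRCm39), and featureCounts with default options assigned them to GENCODE genes. The authors deposited raw, whole-number counts per gene. With these options strand is not used and reads that overlap several genes are left out. Of 55359 genes, 54749 matched GENCODE vM39, which gave symbols, positions, lengths and start sites. Its exon models are newer than those used for counting, which affects levels per length.

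Counts were compared with edgeR 4.0.16 in R 4.3.3 (TMM factors 0.972 to 1.025, filterByExpr with a count minimum of 10, robust quasi-likelihood fit, litter and treatment as terms, Benjamini-Hochberg adjustment over 17050 genes, threshold 0.05). Log2 CPM used a prior count of 2. The ratio of Tfpi to F3 was tested by exact permutation within litters and adjusted over 2 ratios, of which the other is not reported here, and correlations with 100000 permutations. DESeq2 1.42.0 and other settings served as alternatives. Scripts were tested on simulated data.

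The 9 genes, the lists and the tests were chosen with earlier results of these data known. Named genes were the 9, the 2 highest per length of each list and those with an unadjusted p under 0.05. The leading gene of each marker list was also named, with Itga2b, Ptprc and Prox1 as defining markers. Lyz2, Pecam1, Kdr, Cdh5, Lyve1, Pdpn and the glial markers other than Glul were named after their values were seen. Depth was 26697990 to 56033479 reads per mouse, and intervals for absent reads cover counting error only. Mice are separate animals, and the labels give them no numbers shared between groups.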

Additional observations from a re-analysis of the deposited data

Results flagged for a closer look

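Samples that stood apart were looked for among 28 genes in both groups, 56 groups of values in all, and 5 were found. In each, the gap from 1 mouse to the next was large against the range of its group (Dixon's criterion). For normally distributed values this criterion marks about 1 group in 20 by chance. F2, F3 and F8 were at 0 in several mice, so that rate does not apply to them. F8 was highest in PBS mouse 3 at 7.473 CPM, with 2.485 in the next PBS mouse. F3 was highest in PBS mouse 4 at 2.127 CPM (next 0.7966) and, among OSM mice, in mouse 2 at 1.131 (next 0.07146). F2, the gene of prothrombin, had 3.594 CPM in OSM mouse 2 and 0 in the next mouse. Pros1 was lowest in OSM mouse 9 at 177.3 CPM, with 269.7 in the next OSM mouse. PBS mice 3 and 4 also had the highest leukocyte marker sums, in mouse 4 mostly from Lyz2. OSM mouse 2 had the highest glial sum, which was led by Glul. The part of leukocytes and glia was not tested.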

How the results depend on the processing

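None of the 9 genes was called for OSM in any of 21 alternatives (over all genes, 65 of 28940 were called without a filter on low counts and 168 of 22014 by the DESeq2 Wald test), and their fold changes, which passed no test, turned sign in several. Thbd was 0.020 (log2) without a litter term. Without litter 1, Vwf was −0.047, F8 0.63, Plat −0.024 and Mmrn2 −0.086. Without litter 2, Thbd was 0.031, Procr −0.032, Plat −0.0074 and Plaur −0.029, and without litter 3 Plaur was −0.092. Without OSM mouse 5 and PBS mice 3 and 4, highest in rod and leukocyte markers (an alternative added after seeing the data), Vwf was −0.21, Plat −0.11 and Mmrn2 −0.29. This also removes both PBS mice of litter 1, so these values come from litters 2 and 3 without OSM mouse 5. Leaving out each mouse in turn gave −0.048 to 0.11 for Vwf, −0.11 to 0.053 for Thbd, 0.078 to 0.22 for Procr, −0.0023 to 0.22 for Tfpi, −1.97 to 1.09 for F8, −4.81 to −1.09 for F3, −0.030 to 0.051 for Plat, −0.093 to 0.16 for Plaur and −0.027 to 0.20 for Mmrn2. The number with an unadjusted edgeR p under 0.05 was 0 to 1 (Mmrn2 without OSM mouse 6). For differences between litters, edgeR without a filter on low counts called 3 of the 9 (adjusted p 8.29e-08 for Vwf, 4.22e-05 for Thbd, 0.0344 for Mmrn2) and 2.16% of 28940 genes, and DESeq2's likelihood ratio test called 3 of 8 (4.94e-05 for Vwf, 5.05e-06 for Thbd, 0.0104 for Plat) and 995 of 13985 genes. Leaving out each mouse gave 0 to 1, with Thbd called without PBS mouse 8. Correlated pairs past an adjusted p of 0.05 were 0 with litter and treatment removed, and 0 to 3 without each mouse. They were 0 without OSM mouse 2, OSM mouse 6 or PBS mouse 7, and 3 without PBS mouse 8. The difference in the log2 ratio of Tfpi to F3 was 0.319 to 1.83 without each mouse. Without a litter term, F3 was removed by the filter and has no value. Except where shown by fewer mice or genes, the cause was not tested. With all libraries thinned to the smallest, F8 was −0.41 and F3 −2.49. OSM and PBS mice are separate animals with 1 treatment each in the labels, so no analysis paired by mouse was possible. Litter was the unit shared by both groups and served as a term.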
